A study of Mus musculus with 4 samples.

Results

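The genes described here are 10 smooth muscle and serum response factor (SRF) target genes: Acta2, Tagln, Myl9, Cnn1, Cnn2, Tpm1, Tpm2, Csrp1, Fhl2 and Vcl. They were taken as all probe sets whose single gene symbol in the platform annotation is one of these names, which gave 20 of the 45101 probe sets and 10 of the 18194 genes named on the array. The genes were chosen by their log2 differences on these same 4 arrays, so their values are a description and carry no p-value. Gene expression was measured with Affymetrix arrays in the mouse embryonic stem cell line CM7/1, in cells that overexpress Hey1 and in cells that overexpress Hey2. The groups were the Hey1 line after 1000 ng/ml doxycycline for 48 h (Hey1 induced), the Hey1 line without it (Hey1 uninduced), the Hey2 line after the same doxycycline treatment (Hey2 induced) and the Hey2 line without it (Hey2 uninduced). Each group holds 1 array of total RNA, so no difference here has a replicate check, and precision is limited by the number of arrays. The sources used here name neither the promoter that drives each factor nor the number of clones behind a line. Doxycycline-treated cells without an introduced factor were not analysed here, so the factor and doxycycline cannot be told apart.

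The values are log2 probe set levels. The Hey1 probe set read 6.51 in Hey1 induced and 6.73 in Hey1 uninduced cells, and the Hey2 probe set read 4.34 in Hey2 induced and 4.25 in Hey2 uninduced cells, so neither showed its introduced gene and every direction is that of the array with that label. A gene was compared if its highest value reached 6.05, the median of all values, which 12098 genes did, all 10 members among them. For scale, the scaled median absolute deviation (scaled MAD) of the log2 difference over these genes was 0.16 in the Hey1 line, 0.22 in the Hey2 line, 0.29 between the uninduced arrays and 0.25 between the induced arrays. All 15 stem cell markers of the marker list, such as Pou5f1 and Sox2, read between 8.73 and 14.96 on the 4 arrays. Myh11, the smooth muscle myosin heavy chain gene that marks differentiated smooth muscle, read 5.01 in Hey1 induced, 4.96 in Hey1 uninduced, 4.92 in Hey2 induced and 5.06 in Hey2 uninduced cells, each below the median of all values.

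SRF is a transcription factor that binds a short DNA element called the CArG box. Its cofactors of the myocardin family, among them Mrtfa and Mrtfb, enter the nucleus when free actin monomers are bound up in filaments, and SRF then drives genes of the actin cytoskeleton and of smooth muscle contraction. Hey factors are repressors downstream of Notch, and Hey2 has been described elsewhere as blocking SRF and myocardin at smooth muscle promoters. In embryonic stem cells these genes serve the actin cytoskeleton and adhesion, and their presence does not mark a smooth muscle cell.

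Promoter windows from RefSeq (build GRCm38.p6, 250 bases before to 50 after each start) were found for 9 of the 10 genes, all but Tagln, in 11 windows. The CArG box, with 2 C, then 6 bases of A or T, then 2 G, reads as the same pattern on both strands and can overlap a TATA-like stretch. It lay in the windows of 4 of these 9 genes, Myl9, Cnn2, Fhl2 and Vcl, where 1.81% of the 27025 genes with a window hold it. A match is a description and not a shown binding site. The 5 boxes are printed in capitals with their flanks, because they are the sequence feature that the list shares by its name; Fhl2 has a box before each of its 2 starts.
Myl9, chr2:156775273-156775342, plus strand: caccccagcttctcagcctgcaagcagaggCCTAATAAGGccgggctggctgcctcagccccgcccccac
Cnn2, chr10:79988514-79988583, plus strand: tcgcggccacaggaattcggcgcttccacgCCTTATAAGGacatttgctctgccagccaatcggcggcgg
Vcl, chr14:20929148-20929210, plus strand: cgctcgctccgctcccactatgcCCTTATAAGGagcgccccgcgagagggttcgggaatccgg
Fhl2, chr1:43196818-43196887, minus strand: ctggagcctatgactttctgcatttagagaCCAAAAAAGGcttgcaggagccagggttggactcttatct
Fhl2, chr1:43163962-43164022, minus strand: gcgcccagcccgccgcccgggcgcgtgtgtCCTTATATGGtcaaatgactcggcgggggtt

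Acta2, whose promoter is known to work through CArG elements that depart from the strict pattern, had no box but 2 stretches that miss it by 1 letter. Such a stretch is common, since 22.5% of all genes with a window hold at least 1, and Myl9 and Tpm1 hold them too. The Acta2 stretches are shown because this gene had the largest Hey2-line difference and the largest uninduced gap of the 10, and they begin 84 and 34 bases before its start.
Acta2, chr19:34255418-34255487, minus strand: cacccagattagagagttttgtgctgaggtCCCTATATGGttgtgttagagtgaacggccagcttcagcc
Acta2, chr19:34255374-34255437, minus strand: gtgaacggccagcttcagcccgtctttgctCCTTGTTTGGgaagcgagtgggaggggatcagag
The windows of Cnn1, Tpm2 and Csrp1 held neither form, which says only that these letters are not in those bases.

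Acta2 encodes smooth muscle alpha-actin, a filament-forming actin of contractile cells. It read 7.05 in Hey1 induced and 7.18 in Hey1 uninduced cells, and 8.30 in Hey2 induced and 9.81 in Hey2 uninduced cells. Both Hey2-line arrays lay above both Hey1-line arrays, and the Hey2 uninduced array stood highest. The difference on induction was -0.13 for the Hey1 line, within the scaled MAD, and -1.51 for the Hey2 line, the 5th lowest of the 12098 genes. Between the uninduced arrays Acta2 was 6.19-fold higher in the Hey2 line (2.63 on the log2 scale), the 2nd highest of all genes compared, and between the induced arrays 2.38-fold higher (1.25). These values come from a probe set with the suffix s_at, which in Affymetrix naming marks probes that match several transcripts, so near-identical actins could add to it. Actg2, the enteric smooth muscle actin gene, stayed below the median of all values with 5.03, 4.71, 4.67 and 4.87 in the same order of arrays. The skeletal muscle actin gene Acta1 read 6.32, 5.95, 6.32 and 6.42 in that order, a Hey2-line difference of -0.11 and an uninduced gap of 0.48. The part of other actins in the Acta2 values was not tested. The other 2 Acta2 probe sets read between 3.98 and 4.49 on all arrays, and at that level their differences could not be read.

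Myl9, the regulatory light chain of smooth muscle and non-muscle myosin II, had a like pattern. It read 6.46 in Hey1 induced and 6.75 in Hey1 uninduced cells, and 7.73 in Hey2 induced and 8.84 in Hey2 uninduced cells. Every Hey2-line value was above every Hey1-line value. The difference on induction was -0.29 for the Hey1 line and -1.11 for the Hey2 line, the 17th lowest of the genes compared. Myl9 was 4.28-fold higher in the Hey2 line between the uninduced arrays (the 6th highest) and 2.43-fold higher between the induced arrays.

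Tagln encodes transgelin (SM22-alpha), an actin-binding protein and a classical SRF target. It read 7.40 in Hey1 induced and 7.22 in Hey1 uninduced cells, and 8.34 in Hey2 induced and 9.22 in Hey2 uninduced cells. The differences on induction had opposite signs, 0.18 for the Hey1 line, barely past the scaled MAD, and -0.87 for the Hey2 line, the 51st lowest. The gap between the lines was again largest without doxycycline, 3.98-fold between the uninduced arrays and 1.92-fold between the induced arrays.

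**Figure D1:**
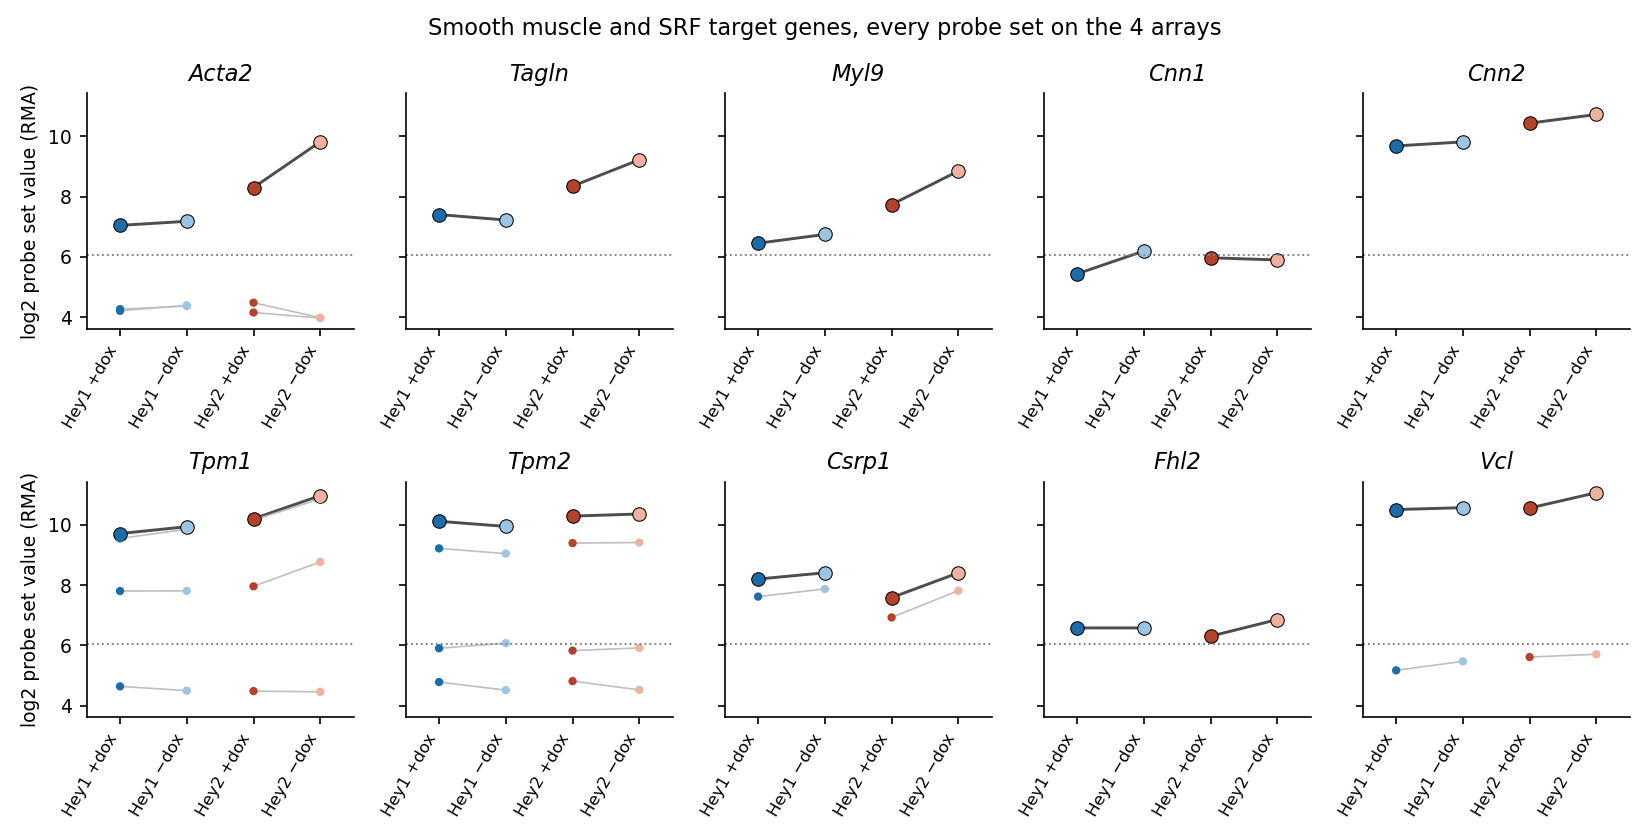
Log2 values of every probe set of the 10 genes on the 4 arrays (horizontal axis: line, with or without doxycycline), with lines joining the arrays of a line. Large outlined points are the probe set that stands for the gene, small points the others, and the dotted line is the median of all values, 6.05; Acta2, Myl9 and Tagln stand highest in Hey2 uninduced cells.

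The calponins are actin-binding proteins that damp the motor activity of myosin, with Cnn1 the smooth muscle form and Cnn2 a more widely expressed form. Cnn1 read 5.44 in Hey1 induced and 6.20 in Hey1 uninduced cells, and 5.97 in Hey2 induced and 5.90 in Hey2 uninduced cells. Only the Hey1 uninduced value reached the median of all values, and by little, so the Hey1-line difference of -0.76, the 21st lowest there, rests on values near or below the filter. The Hey2-line difference of 0.07 lay within the scaled MAD, and Cnn1 was thus the single member without a lower value in Hey2 induced cells. Cnn2 read 9.67 in Hey1 induced and 9.81 in Hey1 uninduced cells, and 10.43 in Hey2 induced and 10.71 in Hey2 uninduced cells. The lines did not overlap for Cnn2, with the Hey2 line 1.88-fold higher uninduced and 1.69-fold higher induced, while the differences on induction were -0.13 and -0.29 in the Hey1 and Hey2 lines.

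Tropomyosins lie along actin filaments and set which proteins can bind them. Tpm1 read 9.70 in Hey1 induced and 9.93 in Hey1 uninduced cells, and 10.19 in Hey2 induced and 10.96 in Hey2 uninduced cells. Its difference on induction was -0.23 for the Hey1 line and -0.76 for the Hey2 line, and the uninduced Hey2 line was 2.04-fold higher than the uninduced Hey1 line. The 3 Tpm1 probe sets above the filter had Hey2-line differences of -0.76, -0.71 and -0.81 and uninduced gaps of 1.03, 1.01 and 0.96, and so lay close to each other. They lay farther apart between the induced arrays, with 0.49, 0.60 and 0.16. Tpm2 read 10.11 in Hey1 induced and 9.94 in Hey1 uninduced cells, and 10.28 in Hey2 induced and 10.35 in Hey2 uninduced cells. Its Hey2-line difference of -0.07 was well within the scaled MAD, and its second well-measured probe set gave -0.02. The pair of tropomyosin genes therefore differed in the Hey2 line, where Tpm1 was lower in induced cells and Tpm2 stayed close to its uninduced value.

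Csrp1, Fhl2 and Vcl encode proteins that join the actin cytoskeleton to adhesions or to transcription. Csrp1, a LIM-domain protein that binds alpha-actinin and zyxin, read 8.20 in Hey1 induced and 8.41 in Hey1 uninduced cells, and 7.58 in Hey2 induced and 8.40 in Hey2 uninduced cells. The uninduced arrays were equal for Csrp1 (a difference of -0.0049), yet the Hey2-line difference on induction was -0.82, the 70th lowest, and the other probe set gave -0.88. The lower value of Csrp1 in Hey2 induced cells thus came without a gap between the uninduced arrays. The Hey1-line differences of the same probe sets were -0.21 and -0.25.

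Fhl2, a LIM-only cofactor that binds SRF and is itself an SRF target, read 6.58 in Hey1 induced and 6.58 in Hey1 uninduced cells, and 6.31 in Hey2 induced and 6.86 in Hey2 uninduced cells. Its difference was -0.55 in the Hey2 line, at values not far above the filter, and its uninduced gap of 0.28 lay within the scaled MAD. Vcl encodes vinculin, which ties actin filaments to integrin and cadherin adhesions. It read 10.50 in Hey1 induced and 10.56 in Hey1 uninduced cells, and 10.55 in Hey2 induced and 11.05 in Hey2 uninduced cells. Hey2 uninduced was the one array that stood apart for Vcl, and its difference on induction was -0.51 for the Hey2 line and -0.06 for the Hey1 line. The second Vcl probe set lay below the filter on all arrays and had -0.09 in the Hey2 line.

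Counted together, 2 of the 10 genes (Acta2 and Myl9) were at least 2-fold lower in Hey2 induced than in Hey2 uninduced cells, where 0.24% of all genes compared were. At 1.5-fold or more, 5 of 10 were lower (Acta2, Myl9, Tagln, Csrp1 and Tpm1), against 2.46% of all genes, and 9 of 10 lay below 0, against 54.3%. The median Hey2-line difference of the 10 genes was -0.66, and that of all genes -0.02. In the Hey1 line 0 of 10 were 2-fold different in either direction (0.471% of all genes), 1 (Cnn1) was at least 1.5-fold lower (0.587%), and the median was -0.13, against -0.01 for all genes. The Hey2-line difference was below the Hey1-line difference for 9 of the 10 genes, all but Cnn1, where this held for 51.3% of all genes. In the pathway lists described below it also held for 24 of 29 other cytoskeletal SRF targets and 8 of 8 Yap and TGF-beta targets. Counts were lower for immediate early SRF targets (6 of 10), SRF and its cofactors (3 of 6) and other smooth muscle contractile genes (4 of 10). The contrasts chose the list, so these shares describe the members and support nothing further, and in bulk RNA fewer cells with these transcripts and less RNA per cell cannot be told apart.

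**Figure D2:**
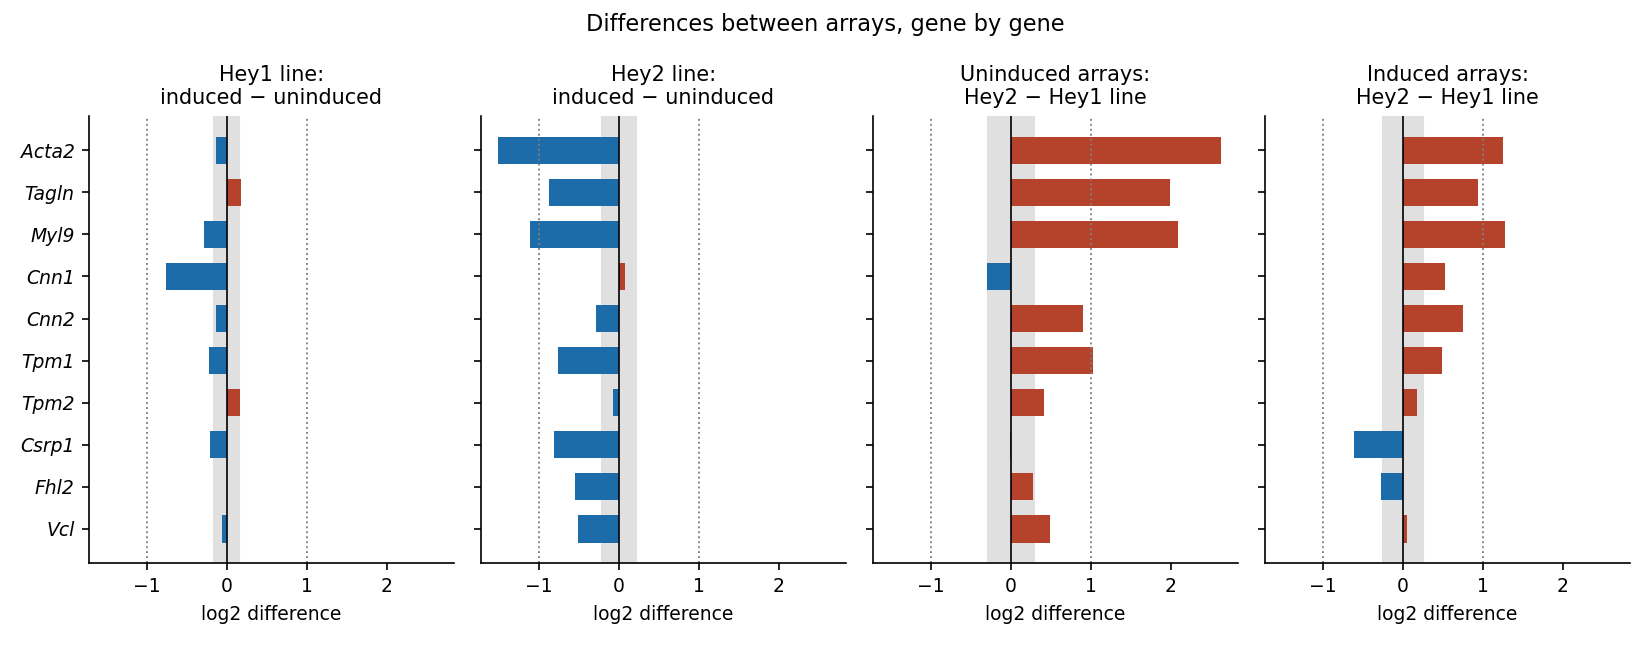
Log2 differences of the 10 genes (1 bar a gene) within the Hey1 line, within the Hey2 line, between the uninduced arrays and between the induced arrays. The grey band is plus and minus the scaled MAD over all 12098 genes and the dotted lines mark 2-fold; the bars of the Hey1 line are short apart from Cnn1 (-0.76), and those between the uninduced arrays reach 2.63 for Acta2.

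For 6 of the 10 genes the difference between the uninduced arrays was larger in size than the change in either line, as it was for 48.1% of all genes. Without doxycycline 4 of 10 genes, Acta2, Myl9, Tagln at 3.98-fold and Tpm1, were at least 2-fold higher in the Hey2 line, where 0.827% of all genes compared were, and 0 were 2-fold lower (1.13% of all genes). The median over the 10 genes was 0.70, against 0.03 over all genes. For Acta2 the uninduced gap of 2.63 stood beside changes of -0.13 and -1.51 in the Hey1 and Hey2 lines, for Tagln 1.99 beside 0.18 and -0.87, for Myl9 2.10 beside -0.29 and -1.11, and for Cnn2 0.91 beside -0.13 and -0.29. Tpm1 had 1.03 beside -0.23 and -0.76, and Tpm2 0.41 beside 0.17 and -0.07. Vcl was even, with 0.49 beside -0.06 and -0.51. Fhl2 (0.28 beside -0.00072 and -0.55), Csrp1 (-0.0049 beside -0.21 and -0.82) and Cnn1 (-0.30 beside -0.76 and 0.07) had a larger change within a line than between the uninduced lines. The uninduced gap and the Hey2-line change share the Hey2 uninduced array, so a high value on that array alone would enlarge both.

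The induced arrays share no array with that gap. Between them 2 of 10 genes (Acta2 and Myl9) were at least 2-fold higher in the Hey2 line, where 0.777% of all genes were, and 0 were 2-fold lower (0.835%). Both gaps were above 0 for 7 of the 10 genes (36.2% of all genes), and both were at least 1.5-fold for Acta2, Myl9, Tagln and Cnn2, 4 of 10, where 2.41% of all genes were. As a share of the uninduced gap on the log2 scale, the induced gap was 47.6% for Acta2, 47.2% for Tagln, 47.7% for Tpm1, 61.0% for Myl9, 83.2% for Cnn2, 41.9% for Tpm2 and 10.1% for Vcl, the 7 genes with both gaps above 0. Csrp1 went the other way, with a lower value in the Hey2 line between the induced arrays (-0.61), and Fhl2 also had -0.27. Set against Hey1 uninduced cells, Hey2 induced cells differed by 1.12 for Acta2, 1.12 for Tagln and 0.99 for Myl9, so for these 3 genes the value after induction was lower against the line's own uninduced array and higher against the other one.

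**Figure D3:**
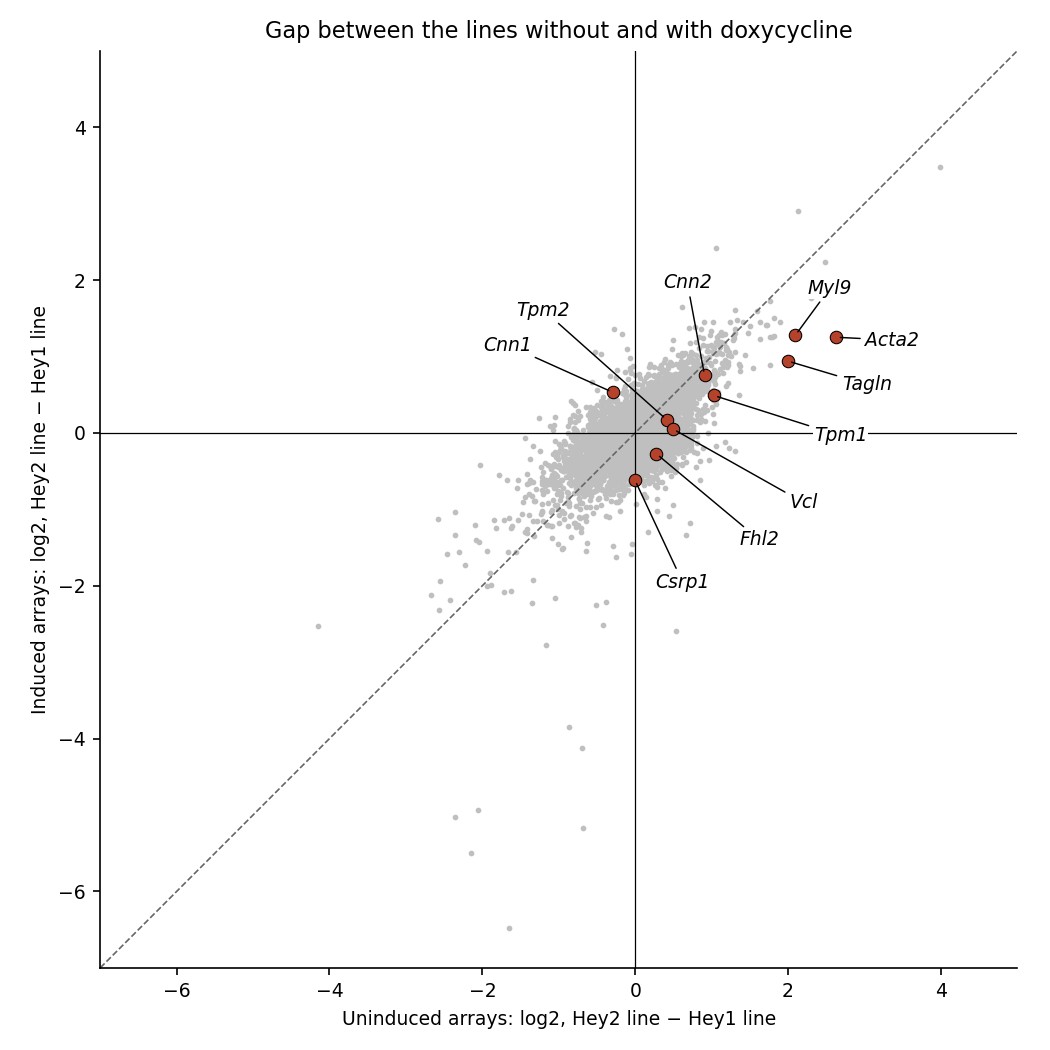
Each point is a gene, with the log2 gap of the Hey2 line minus the Hey1 line between the uninduced arrays (horizontal) and between the induced arrays (vertical), and the dashed line marks equal gaps. Among the 10 genes, drawn in red, Acta2, Myl9 and Tagln lie to the right and below the line (2.63 and 1.25 for Acta2), and Csrp1 lies near 0 and -0.61.

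SRF itself, first among the other genes of the pathway, read 8.30 in Hey1 induced and 8.43 in Hey1 uninduced cells, and 8.32 in Hey2 induced and 8.59 in Hey2 uninduced cells, differences of -0.13 and -0.27. Of the 6 genes of SRF and its cofactors above the filter, 0 were 2-fold different within a line (0.471% and 0.926% of all genes in the Hey1 and Hey2 lines), with a median of -0.14 in each line. Elk3, an ETS partner of SRF, was the only 1 of the 6 past 2-fold between the induced arrays, where 1.61% of all genes were. It read 9.03 for the Hey2 line and 7.81 for the Hey1 line (1.22), although its second probe set above the filter had 0.75. Within the Hey2 line Elk3 was higher in induced cells by 0.84, and by 0.30 on that second probe set. The myocardin gene Myocd stayed below the filter.

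Among 29 compared cytoskeletal SRF targets outside the list, 0 were 2-fold different in either line, near the background of 0.471% and 0.926% of all genes, and their medians were 0.06 for the Hey1 line and -0.08 for the Hey2 line. Between the uninduced arrays 26 of the 29 lay above 0, where 53.7% of all genes did, with a median of 0.29, so most were higher in the Hey2 line by small amounts. Pdlim7, which encodes a PDZ and LIM protein of actin filaments, had the largest gap there, 1.36, and its other probe sets had 1.17 and 0.98. Myh9, the non-muscle myosin heavy chain gene, had 0.86 and the alpha-actinin gene Actn4 had 0.69. In contrast to Acta2, these 3 genes had Hey2-line changes of only -0.17, -0.09 and -0.06.

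Of 20 other smooth muscle contractile genes listed, 19 were on the array with a single-symbol probe set and 10 passed the filter, and 0 of these were 2-fold different in any of the 4 comparisons, where 1.96% of all genes were between the uninduced and 1.61% between the induced arrays, so that a count of 0 in 10 genes lies near the background. Their median was 0.08 in the Hey1 line, 0.05 in the Hey2 line and 0.13 between the uninduced arrays. The caldesmon gene Cald1 read 9.33 in Hey1 induced, 8.85 in Hey1 uninduced, 9.37 in Hey2 induced and 9.35 in Hey2 uninduced cells. Nexn, an actin-binding protein gene, had a difference of 0.88 in the Hey2 line, the largest of the 10 there. It passed the filter only through Hey2 induced cells (6.38), the array where it was high, and read 5.50 in Hey2 uninduced cells. The Nexn difference therefore starts from a value below the filter. Itga8, an integrin gene of smooth muscle, had 0.20 for the Hey1 line and 0.51 for the Hey2 line.

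Many immediate early genes answer SRF mainly through its ETS partners, though the split from the actin-sensing cofactors is not strict. Of the 10 compared, 0 were 2-fold different in either line, again near the background (0.471% and 0.926%). Egr1, a growth-factor-induced zinc finger gene, had 0.89 in the Hey1 line, -0.65 in the Hey2 line and 1.30 between the uninduced arrays. Egr1 thus shared with Acta2 the high Hey2 uninduced value (9.43, against 8.13 in Hey1 uninduced cells) but was close between the induced arrays (8.78 for the Hey2 line and 9.02 for the Hey1 line). Of 8 compared Yap and TGF-beta targets, 0 were 2-fold different in any comparison, near the background shares of 0.471%, 0.926%, 1.96% and 1.61%, and the matrix signalling gene Ccn2 had 0.70 between the uninduced arrays and -0.16 in the Hey2 line.

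**Figure D4:**
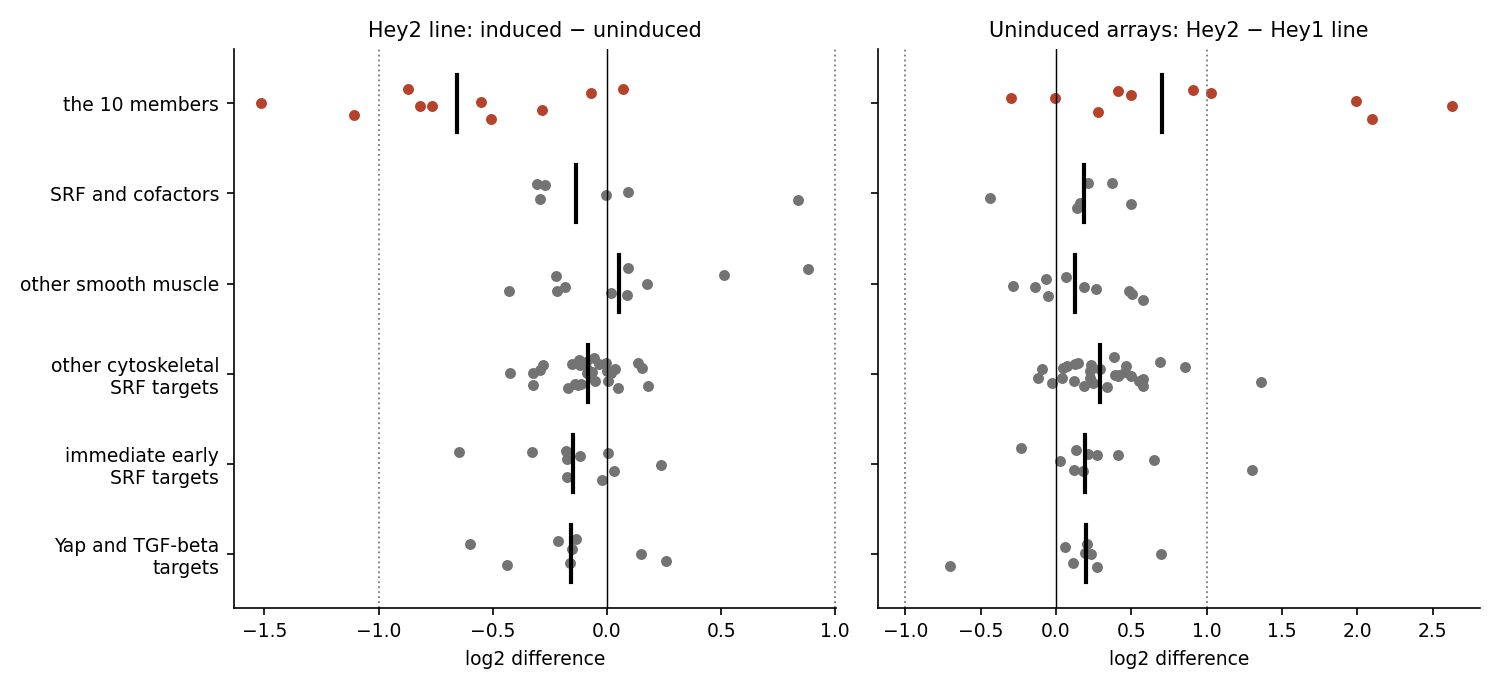
Log2 differences of single genes (points, with a bar at each list's median) within the Hey2 line on the left and between the uninduced arrays on the right, for the 10 members in red and the other lists in grey. Dotted lines mark 2-fold; the members' medians are -0.66 and 0.70, and the other lists' medians lie between -0.16 and 0.05 on the left and between 0.13 and 0.29 on the right.

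Outside these lists, the genes most like Acta2 were found by the Euclidean distance between the 4 log2 values of each gene, centred on the gene's own mean. Myl9 was the nearest of all (0.40) and Tagln the 8th (0.69). The 6 nearest genes outside the list, predicted genes and clones aside, were Vwf (0.58), Plac8 (0.62), Krt17 (0.66), Serpinb6c (0.67), Il17b (0.69) and Kbtbd11 (0.74). Vwf, the von Willebrand factor gene and one of the endothelial markers, read 5.07 in Hey1 induced, 5.50 in Hey1 uninduced, 6.34 in Hey2 induced and 7.32 in Hey2 uninduced cells. Il17b, a cytokine gene, had -0.22 in the Hey1 line, -1.09 in the Hey2 line and 1.76 between the uninduced arrays. Likeness over 4 arrays is a description of these arrays.

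Markers of other cell types also differed between the lines' responses. The median of the Hey2-line difference minus the Hey1-line difference was below 0 in 6 marker lists. It was -0.37 for fibroblast, -0.29 for cardiomyocyte, -0.43 for skeletal muscle, -0.33 for endothelial, -0.37 for endoderm and -0.39 for trophectoderm and epithelial markers. These medians rest on few compared genes, from 3 for endoderm to 9 for cardiomyocyte markers. It was -0.54 for the 10 genes, 0.02 for the stem cell markers and 0.05 for the other smooth muscle contractile genes. Of the 10 compared in that last list 4 were below 0 (51.3% of all genes), and the values ran from -0.62 to 0.91. Within the Hey2 line the medians were -0.45 for endothelial, -0.31 for cardiomyocyte, -0.22 for fibroblast, -0.22 for endoderm, -0.11 for skeletal muscle and 0.00063 for trophectoderm and epithelial markers. The part of these cell types in the members' differences was not tested. Of 18 fibroblast markers 4 passed the filter, Col1a1, Col3a1, Postn and Lum were below it on all arrays, and the log2 of the list's summed linear level was 9.94 in Hey1 induced, 9.79 in Hey1 uninduced, 9.58 in Hey2 induced and 9.68 in Hey2 uninduced cells. Between the uninduced arrays 2 of these 4 were above 0 (53.7% of all genes), with a median of -0.03, from -1.62 for Thy1 to 0.23 for Col1a2. In Hey2 induced cells 3 of 4 were lower (54.3% of all genes), and with 4 genes both counts lie near those shares. Of 14 cardiomyocyte markers 9 passed, with sums of 10.31, 10.30, 9.84 and 10.02 in the same order, and Myl7 and Myl2 were lower in the Hey2 line between the induced arrays (-1.20 and -1.52). Of 9 endothelial markers 6 passed, with sums of 9.82, 9.80, 9.82 and 10.08, and Cdh5, Tie1 and Emcn were below the filter on all arrays. Of the 6 endothelial markers compared, 5 were lower in Hey2 induced than in Hey2 uninduced cells, where 54.3% of all genes were. Also 5 were higher in the uninduced Hey2 than in the uninduced Hey1 line (median 0.38), where 53.7% of all genes were. Vwf (-0.98 and 1.82), Erg (-0.58 and 0.46) and Tek (-0.34 and 0.50) were among those with both, as Acta2 was. Erg passed the filter only through Hey2 uninduced cells (6.28), the array that both comparisons share. Of 9 endoderm markers 3 passed, and their sums over all 9 were 10.51, 10.54, 10.61 and 11.10, highest in Hey2 uninduced cells like Acta2, led by the laminin gene Lamb1 (10.79 there). The sums of the remaining lists stood otherwise. Of 9 skeletal muscle markers 5 passed, with sums of 12.04, 11.90, 12.51 and 11.94, highest in Hey2 induced cells. The highest single marker read 12.38 in Hey2 induced and 11.72 in Hey2 uninduced cells, so it made most of those sums. Of the 5 compared, 3 were lower in Hey2 induced cells (54.3% of all genes), with a median of -0.11. Between the uninduced arrays 4 of 5 were higher in the Hey2 line (53.7% of all genes), with a median of 0.19. Of 9 trophectoderm and epithelial markers 5 passed, with sums of 11.45, 11.12, 11.15 and 11.10, lowest in Hey2 uninduced cells. RNA quality controls were read as the log2 difference of 3' over 5' probe sets. All were higher in Hey2 induced than in Hey2 uninduced cells, with 0.96 and 0.67 for Tfrc, 1.56 and 1.33 for Pcx, 0.42 and 0.39 for Actb and 0.032 and 0.012 for Gapdh. In Hey1 induced and Hey1 uninduced cells they were 0.84 and 0.95 for Tfrc, 1.43 and 1.38 for Pcx, 0.51 and 0.48 for Actb and 0.042 and 0.040 for Gapdh. Hey2 uninduced cells thus had the lowest value of the 4 arrays for every control. The part of RNA quality in the Hey2-line differences and in the gap between the uninduced arrays was not tested.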

How the data were processed

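Total RNA was hybridised to 4 single-colour Affymetrix arrays. The authors deposited log2 values per probe set, which they made with RMA, per the submitters' processing notes. The sources used here name no RMA version or chip description file. Sorted, the 4 arrays differed by at most 0.0024, so a shift of every gene at once would not show.

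Groups came from the sample titles, with 1 array each. Of 45101 probe sets, 34958 had a single symbol in the platform annotation, 932 several and 9211 none. Each gene was represented by its probe set with the highest mean, and compared if its highest value reached the median of all values. Differences of log2 values were taken between arrays and no test was made. Members and lists were chosen with earlier results of these data known. Named genes were the 10 members, up to 6 genes per other list past 2-fold (otherwise the 3 with the largest uninduced difference) and the 6 genes most like Acta2; SRF (Srf), Myocd, Actg2, Myh11 and the absent markers were named for their roles, and Nexn after its value was seen. The calls were run on simulated arrays with known changes put in, which checks the arithmetic and not the spread between cultures or clones. Python 3.11.15, numpy 2.4.6, pandas 2.3.3 and, for cyclic loess, limma 3.58.1 in R 4.3.3 were used.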

Additional observations from a re-analysis of the deposited data

Results flagged for a closer look

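With 1 array per group, the genes given here are those of the 10 and of the genes named by rule whose differences on induction had opposite signs in the 2 lines. None of these was tested. The share of all genes with opposite signs is not given here, and a sign can turn on a change near 0. The values are the Hey2-line change minus the Hey1-line change on the log2 scale. Among the 10 genes they were -1.05 for Tagln, 0.83 for Cnn1 and -0.24 for Tpm2. Tagln was lower in Hey2 induced cells and slightly higher in Hey1 induced cells, and Cnn1 the reverse. Among other SRF pathway genes they were -1.53 for Egr1, -0.62 for Npnt, -0.46 for Pdlim7, -0.38 for Elk1, -0.24 for Ccn2, -0.23 for Zfp36, -0.21 for Myh9 and -0.21 for Actn4. For Ccn2, Zfp36, Myh9 and Actn4 the changes in both lines lay within the scaled MAD, such as 0.12 and -0.09 for Myh9 in the Hey1 and Hey2 lines. Npnt passed the filter only through Hey2 uninduced cells (6.20). Pathway genes that the rule did not name had opposite signs too, and those given here were picked after their values were seen. Among them were Nexn (0.91, above the filter only in Hey2 induced cells), Fos (-0.84), Svil (-0.56), Tln1 (-0.46), Des (-0.43) and Zyx (-0.42). Among the markers they were -1.47 for Krt19, -0.95 for Hand1, -0.57 for Myl2, -0.48 for Acta1, -0.47 for Col1a2, -0.29 for Col5a1, -0.25 for Lin28a and 0.74 for Klf4.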

How the results depend on the processing

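Of 305 values of single genes under the alternatives fixed with the design, 284 moved by less than the scaled MAD, 19 by more, and 2 values past 2-fold changed sign. Many of the 284 could hardly move: 50 without a filter, 40 with the filter at the 75th percentile and 50 with median centring. A filter changes no value, and the sorted arrays were nearly equal. Against the uninduced array of the other line 2 values moved by less than the scaled MAD, 16 by more, and 2 changed sign. Those 2 were the Hey2-line differences of Acta2 and Myl9, which became 1.12 and 0.99. With that reference the median of the 10 genes was -0.80 in the Hey1 line, with 5 genes past 2-fold, and 0.30 in the Hey2 line. When all probe sets of a gene were averaged, Acta2 dropped below the filter because 2 of its 3 probe sets are dim; of the 9 genes left, the uninduced median was 0.36, and the genes past 2-fold were 1 in the Hey2 line, 2 between the uninduced and 1 between the induced arrays. With every probe set on its own the induced median was 0.18. At 1.5-fold the genes past the threshold were 1 in the Hey1 line, 5 in the Hey2 line and 5 between the induced arrays. No medians or counts of the 10 genes moved by as much with cyclic loess, median centring, the offset of 32, no filter or the filter at the 75th percentile (8.31). No paired analysis was possible because each group holds 1 array. Clone, culture and handling cannot be told apart from line and induction.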
